A study of Mus musculus with 4 samples.

Results

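The 8 genes described here are the corticosteroid receptors Nr3c1 and Nr3c2 and 6 of their response genes, Fkbp5, Sgk1, Tsc22d3, Zbtb16, Ddit4 and Cdkn1a. They were taken from a list by name, chosen with earlier results of these data known, and are 8 of the 20211 genes listed in all 4 libraries. Single-nucleus RNA sequencing was done on mouse hippocampus, with 1 library from wild type mice and 1 from each of 3 lines lacking monoacylglycerol lipase (MAGL), the enzyme encoded by Mgll that breaks down the endocannabinoid 2-arachidonoylglycerol. The labels name these lines Total/global MAGL-KO, Astrocyte specific MAGL-KO and Neuron specific MAGL-KO, called below the total, astrocyte and neuron knockout libraries. They give no age, no sex, no number of animals per library, no Cre driver and no treatment. With 1 library per genotype, no difference between genotypes has a replicate check.

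Corticosterone, the main glucocorticoid of mice, enters the brain and binds both receptors. The mineralocorticoid receptor (Nr3c2) has the higher affinity and is largely occupied at resting hormone levels, while the glucocorticoid receptor (Nr3c1) is filled at the daily peak and under stress. The hormone-bound receptors enter the nucleus and act at DNA elements whose palindromic consensus is called the glucocorticoid response element. Among the response genes, Fkbp5 encodes a co-chaperone that lowers the hormone affinity of the receptor, Sgk1 a kinase that regulates ion channels and transporters, Tsc22d3 the leucine zipper protein GILZ, and Zbtb16 the transcription factor PLZF. Ddit4 encodes REDD1, an inhibitor of mTORC1, and Cdkn1a the cell cycle inhibitor p21. The hippocampus is known for its high content of mineralocorticoid receptor.

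Sgk1 is shown by sequence because it was the single member for which a promoter window held the full consensus. The windows reach from 250 bases before to 50 bases after an annotated start (RefSeq, GRCm38.p6), and 6 of the 8 members had at least 1, giving 14 windows. The search was for AGAACA, any 3 bases and TGTTCT, on both strands, and 3 of all 32851 promoter windows held it (0.00913%). In the stretch below, at chr10:21993656-21993760 on the plus strand, the capitals mark the match, whose first base lies 189 bases before the annotated start.

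Sgk1: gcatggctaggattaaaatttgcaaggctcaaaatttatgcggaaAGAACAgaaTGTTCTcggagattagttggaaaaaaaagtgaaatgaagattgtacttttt

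The window belongs to the fifth of 6 annotated starts of Sgk1. Its 6-base arm, TGTTCT or AGAACA, was in 4 of the 14 member windows and in 6233 of all 32851 (19.0%), and it is contained in the full motif. A match describes the letters and not a bound site.

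On the mouse assembly GRCm38 (GENCODE annotation), Nr3c2 spans chromosome 8 from 76899442 to 77245012 and Nr3c1 chromosome 18 from 39410545 to 39519421. Fkbp5 spans 28399094 to 28517527 and Cdkn1a 29090976 to 29100727, both on chromosome 17. Sgk1 spans 21882184 to 21999903 and Ddit4 59949669 to 59951834 on chromosome 10. Zbtb16 lies on chromosome 9 from 48654297 to 48836222, and Tsc22d3 on chromosome X from 140539528 to 140600659. No source used here states whether counting used strand. The listed antisense gene Gm10649 overlaps Nr3c2 and had 2319, 2976, 1792 and 1926 molecules in the dentate granule nuclei of the 4 libraries, so a part of either count could belong to the other.

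The wild type, total, astrocyte and neuron knockout libraries held 9369, 31243, 10731 and 8945 barcodes, with medians of 8904, 5456, 7448 and 8446 unique molecular identifiers (UMIs, counted RNA molecules) per barcode. The total knockout library stood apart: 23.3% of its barcodes were scored as doublets and removed, against 1.98% to 5.87% in the others, and 3 of its 23705 kept nuclei were called female by Xist and Y-linked genes, against 41.0% to 47.0% elsewhere. Pairs of libraries shared 108 to 466 barcodes. Nuclei were grouped into classes by clustering on other genes, and each class is named for its resemblance to a cell type in markers. In the classes tested, 7 of 7 listed markers were at least 2-fold above all other nuclei for dentate granule-like and CA1-like nuclei, 7 of 9 for CA2/CA3-like, 10 of 11 for inhibitory, 9 of 9 for astrocyte-like and 8 of 8 for oligodendrocyte-like nuclei. Outside the tests it was 5 of 6 for mossy cells and 7 of 10 for the subicular or cortical class. Clusters had been named by these same lists and the same 2-fold rule, so the counts describe the classes and do not check the names. Of 51354 nuclei, 15544 (30.3%) stayed unnamed. Mgll RNA stood at 121, 102, 139 and 130 CPM (UMIs scaled to the total UMIs of the class) in dentate granule nuclei and at 469, 364, 370 and 559 CPM in astrocytes. No source used here gives the deleted part of Mgll, so these values do not check the labels, and the genotypes below are those of the labels.

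Values per library below are always in the order wild type, total, astrocyte and neuron knockout. They are CPM of a class summed over its nuclei, and a mean ± SD is over libraries. CPM is not divided by gene length, so levels are compared between classes and libraries and not between genes. Lower RNA per nucleus of a type and fewer nuclei of a subtype within a class cannot be told apart in such sums.

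Nr3c2 was high in the principal neurons of the hippocampus and low in inhibitory neurons and glia. In dentate granule neurons its level was 1485, 1413, 1235 and 1413 CPM, in CA1 pyramidal neurons 1257, 1329, 1173 and 1282 CPM, and in CA2/CA3 pyramidal neurons 1501, 1459.7, 1376 and 1562 CPM. Both CA1 and CA2/CA3 overlapped the dentate granule range but not each other. Neither CA1 (log2 difference -0.08 ± 0.10, SE; adjusted p = 0.539, edgeR) nor CA2/CA3 (0.14 ± 0.10; adjusted p = 0.234) passed the test against the dentate granule class. Within each library, however, CA1 lay below and CA2/CA3 above the dentate granule value, and the SE is pooled over all classes of the fit. Inhibitory neurons held 353, 400.8, 382 and 391 CPM, all below every value of the principal neurons. Against the 3 excitatory classes together, inhibitory neurons were lower by a log2 difference of -1.99 ± 0.10 (SE, n = 4 libraries; adjusted p = 1.36e-21, edgeR). Mossy cells of the hilus, excitatory neurons of the dentate gyrus, lay between these groups at 630, 557, 582 and 592 CPM. The subicular or cortical excitatory class was lower still, at 180.2, 182, 215 and 228 CPM, so the high level was not shared by all excitatory nuclei of the libraries. When nuclei were assigned 1 by 1 from their markers, 15 of 30, 19 of 75, 26 of 64 and 19 of 41 mossy nuclei kept the name. The name is therefore uncertain for many nuclei of the mossy class, here and below.

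Astrocytes and oligodendrocytes had less Nr3c2 than hippocampal neurons pooled (the 4 tested neuron classes). Astrocytes held 611, 488, 407 and 308 CPM and oligodendrocytes 141, 71.7, 95.2 and 62.8 CPM, log2 differences from those neurons of -1.64 ± 0.15 (adjusted p = 1.66e-12) and -3.71 ± 0.16 (adjusted p = 2.87e-23). Astrocytes were above inhibitory neurons in 3 of the 4 libraries, all but the neuron knockout library. These glial values rest on few molecules: the astrocyte class of the astrocyte knockout library had 22 Nr3c2 UMIs in 4 of 25 nuclei, with 14 of them in 1 nucleus. In oligodendrocytes the list of 7 CA1 markers summed to 378, 315, 0 and 0 CPM. The list of 7 dentate granule markers summed to 4967, 5256, 5060 and 5278 CPM there (5, 6, 4 and 3 of its genes, C1ql2 at 0 in each library). Such a sum does not tell neuronal RNA from RNA of these genes made by oligodendrocytes themselves, so it is no measure of neuronal RNA. The part of neuronal RNA in the glial Nr3c2 counts was not tested.

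Nr3c1 had another order of classes. Its level was 157, 166, 157 and 161 CPM in CA1, 104, 118, 87.4 and 105 CPM in dentate granule neurons, 65.6, 58.0, 55.1 and 56.3 CPM in inhibitory neurons and 35.7, 47.3, 38.9 and 41.4 CPM in CA2/CA3. The ranges of these 4 classes did not overlap. CA1 exceeded the dentate granule class by 0.69 ± 0.06 on the log2 scale (adjusted p = 7.23e-14), and CA2/CA3 lay below it at -1.29 ± 0.07 (adjusted p = 1.94e-19). Inhibitory neurons were below the excitatory classes (-0.74 ± 0.06; adjusted p = 4.51e-15). The CA2/CA3 class thus had the lowest mean of Nr3c1 and the highest mean of Nr3c2 among the 15 classes with at least 20 nuclei in a library, with 40.8 ± 4.88 CPM (SD, n = 4) and 1475 ± 78.2 CPM (SD, n = 4). For Nr3c2 its range overlapped that of the dentate granule class, which came next. The Nr3c1 level of CA2/CA3 depended on how nuclei were named: with nuclei assigned 1 by 1 from their markers it was 72.0 CPM, above the 62.8 CPM of inhibitory neurons, and the log2 difference from dentate granule neurons was -0.47 (adjusted p = 0.00955).

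Nr3c1 was higher in astrocytes and oligodendrocytes than in the 4 tested neuron classes. Astrocytes held 244, 309, 296 and 202 CPM and oligodendrocytes 246, 261, 231 and 209 CPM, each value above the highest of the 4 tested neuron classes. The log2 differences from hippocampal neurons were 1.08 ± 0.19 (adjusted p = 1.13e-05) and 1.28 ± 0.10 (adjusted p = 4.15e-15). The subicular or cortical excitatory class, not part of that test, reached 197, 208, 161 and 165 CPM and overlapped CA1. Thalamic excitatory neurons, also outside the test, held 289 CPM in the total and 271 CPM in the astrocyte knockout library and overlapped astrocytes. Microglia had enough nuclei in the total knockout library alone, where 20 UMIs in 15 of 53 nuclei gave 386 CPM.

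Oligodendrocyte precursors, counted in 3 libraries, stood between inhibitory neurons and mature oligodendrocytes for Nr3c2. Their level was 166, 223 and 228 CPM in wild type, total and astrocyte knockout, from 174, 327 and 14 UMIs, and each value was above all oligodendrocyte values. Their Nr3c1 level was 181, 185 and 131 CPM, from 189, 272 and 8 UMIs, and overlapped both CA1 and the subicular or cortical class. Mossy cells held 47.2, 49.9, 79.0 and 77.1 CPM of Nr3c1, from 21 to 60 UMIs, and overlapped both CA2/CA3 and inhibitory neurons. Meningeal fibroblasts, with 25 nuclei in wild type and 20 in the total knockout library, held 1068 and 1529 CPM of Nr3c2 from 52 and 35 UMIs, which overlapped the principal neurons. That class carried many astrocyte molecules: the 9 astrocyte markers summed there to 6079 and 4456 CPM (7 and 5 of them counted, Gfap at 0 in both libraries), against 3430 and 1660 CPM of its own 4 markers. When nuclei were assigned 1 by 1 from their markers, 5 of the 25 and 1 of the 20 kept the name, and the part of astrocyte RNA in the values of this class, here and below, was not tested.

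**Figure D1:**
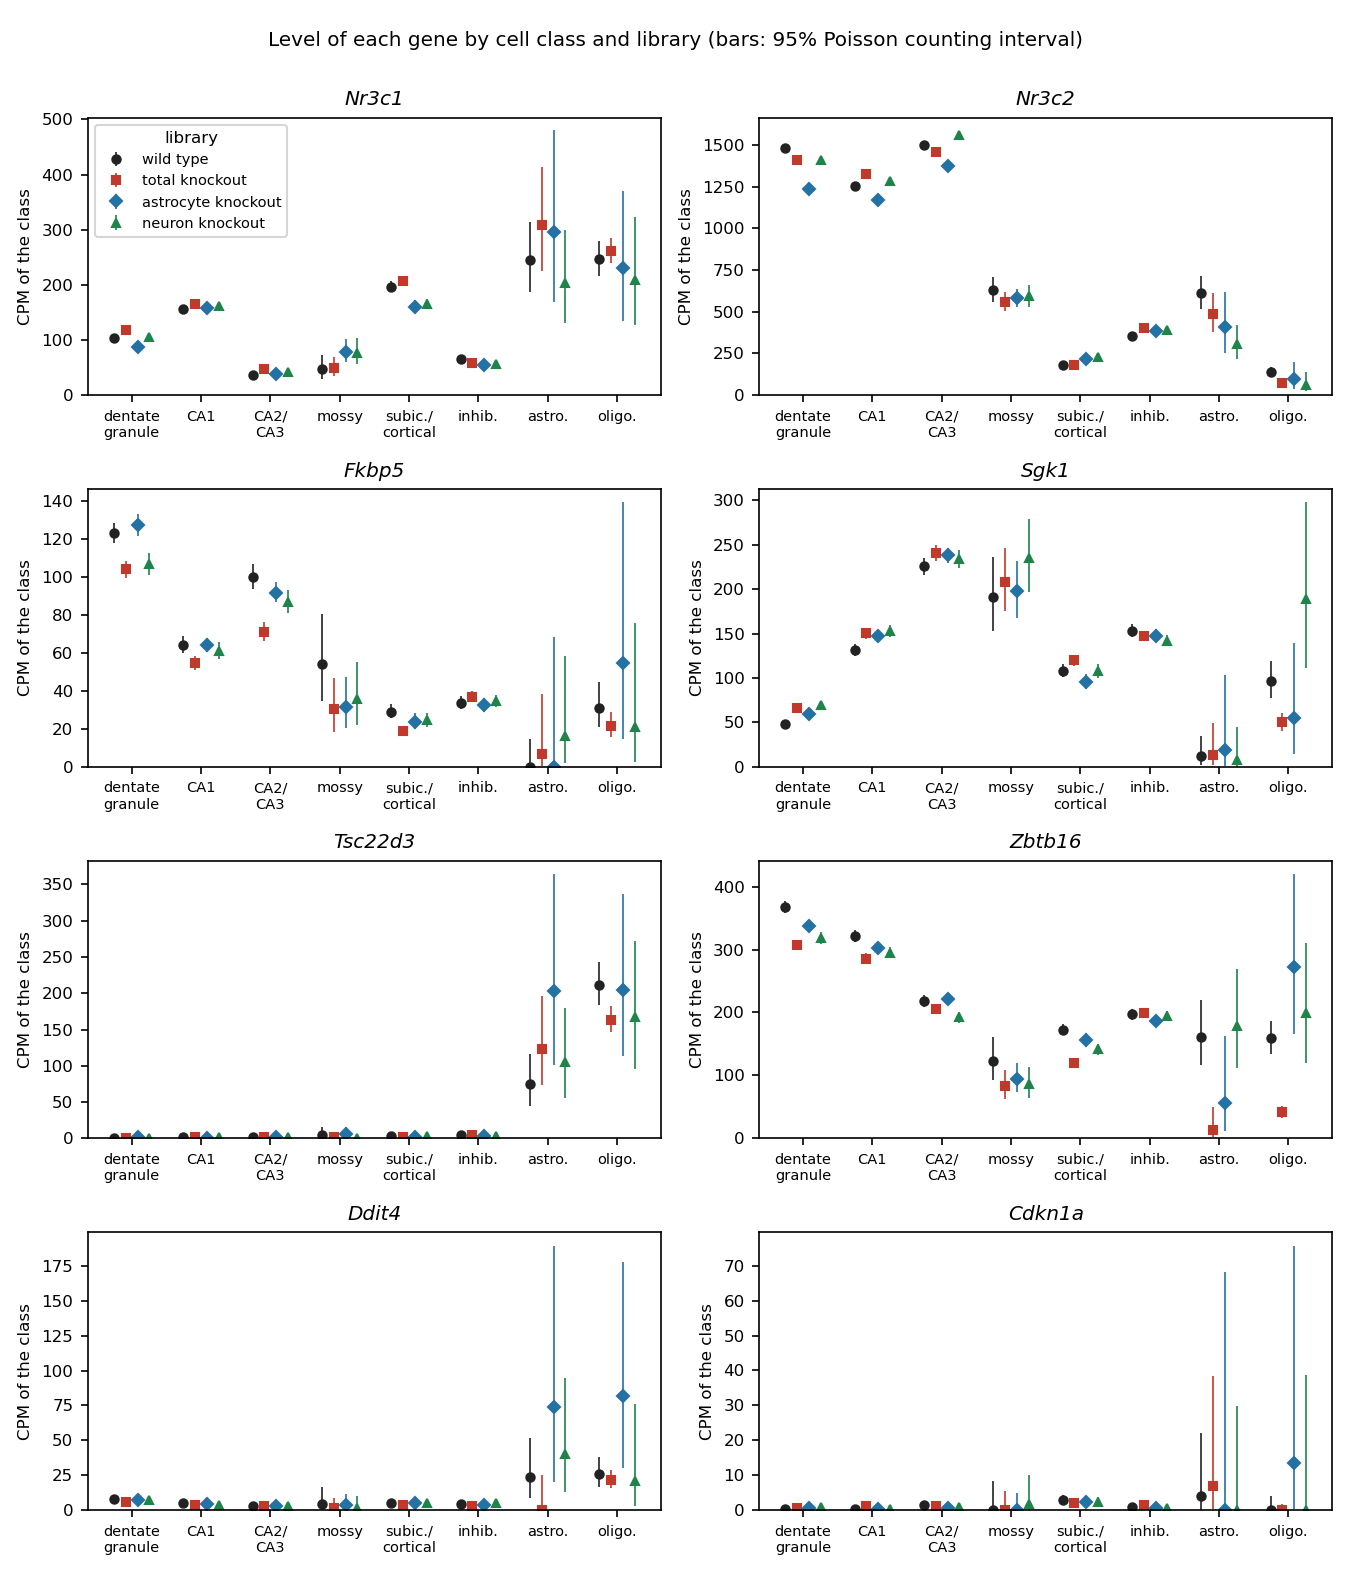
Level of each of the 8 genes by class, in CPM on a linear axis, with 1 point per library and bars for the 95% Poisson counting interval. Of the 8 classes plotted, Nr3c2 was highest in CA2/CA3, dentate granule and CA1 neurons, Nr3c1 lowest in CA2/CA3 neurons, and Tsc22d3 at 74.9 CPM or more in each astrocyte and oligodendrocyte point while the tested neuron classes stayed at 5.22 CPM or less.

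Among the 4 tested neuron classes, Fkbp5 was highest in dentate granule neurons, followed by CA2/CA3, CA1 and inhibitory neurons. Its level was 123, 104, 127 and 107 CPM in dentate granule neurons, 100.04, 71.0, 91.8 and 86.7 CPM in CA2/CA3, 64.1, 54.4, 64.1 and 61.2 CPM in CA1 and 33.6, 36.7, 32.3 and 34.7 CPM in inhibitory neurons. No range of these 4 classes overlapped the next. The log2 differences from dentate granule neurons were -0.86 ± 0.06 for CA1 (adjusted p = 8.87e-17) and -0.35 ± 0.06 for CA2/CA3 (adjusted p = 9.61e-07), and inhibitory neurons lay at -1.42 ± 0.06 against the excitatory classes (adjusted p = 2.30e-24). Astrocytes had 0, 1, 0 and 2 Fkbp5 UMIs, in 100, 97, 25 and 51 nuclei. Oligodendrocytes held 31.1, 21.6, 54.4 and 20.9 CPM, from 29, 43, 4 and 2 UMIs. Both glial classes were below neurons in the fit, oligodendrocytes at -1.68 ± 0.18 (adjusted p = 1.09e-10) and astrocytes, near the limit of 3 counts, at a fitted -4.30 ± 0.57 (adjusted p = 4.78e-08) that depends on the prior count. Oligodendrocyte precursors had 71, 62 and 0 UMIs in wild type, total and astrocyte knockout, or 67.8, 42.3 and 0 CPM. Higher values came from few nuclei: microglia of the total knockout library held 231 CPM (12 UMIs in 8 of 53 nuclei). Meningeal fibroblasts held 842 CPM in wild type (41 UMIs in 11 of 25 nuclei) and 131 CPM, from 3 UMIs, in the total knockout library.

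The excitatory classes other than dentate granule, CA1 and CA2/CA3 neurons were lower in Fkbp5. Mossy cells held 54.0, 30.2, 31.6 and 35.9 CPM, from 20 to 24 UMIs, and the subicular or cortical class 29.0, 19.0, 23.7 and 24.4 CPM. All of these values lay below every CA1 value, and mossy cells overlapped inhibitory neurons. The listed gene Gm22146 overlaps Fkbp5 and had 78, 48, 87 and 62 UMIs in dentate granule neurons against 2040, 2123, 1806 and 1430 of Fkbp5.

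Sgk1, unlike Fkbp5, was lowest in dentate granule neurons among the principal neurons, at 48.0, 66.4, 59.7 and 69.9 CPM. It reached 132, 150.5, 148 and 153 CPM in CA1 and was highest of the 4 tested neuron classes in CA2/CA3, at 226, 241, 238 and 234 CPM. No values of these 3 classes overlapped, and the log2 differences from dentate granule neurons were 1.32 ± 0.09 (adjusted p = 3.87e-16) and 2.00 ± 0.09 (adjusted p = 6.67e-22). Inhibitory neurons held 153, 147, 148 and 142 CPM, which overlapped CA1, and did not differ from the excitatory classes together (0.06 ± 0.07, adjusted p = 0.470, edgeR). Mossy cells, which belong to the dentate gyrus, had 191, 208, 198 and 235 CPM. Each of those values was above every dentate granule value.

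Medium spiny neurons, with 28 nuclei in wild type and 724 in the total knockout library, had the highest mean of Sgk1, between 315 and 368 CPM. Oligodendrocyte precursors held 196 to 254 CPM in the 3 libraries with at least 20 such nuclei. Mature oligodendrocytes held 96.7, 50.1, 54.4 and 189 CPM and lay below the tested neuron classes pooled (-1.20 ± 0.15, adjusted p = 5.08e-09, edgeR). They overlapped dentate granule neurons, and their mean of 97.4 CPM was above the 61.0 CPM of that class. Astrocytes had 3, 2, 1 and 1 UMIs, and the fitted log2 difference from neurons was -4.03 ± 0.42 (adjusted p = 1.61e-10). Choroid plexus epithelium of wild type had 174 UMIs in 60 of 105 nuclei, or 369 CPM, slightly above both medium spiny values. None was counted in the 21 such nuclei of the total knockout library, with no test of the difference. The nuclei of these libraries sat mostly in different clusters of the class. Of 2 clusters, one held 74 wild type and 0 total knockout nuclei, and the other, led by the contractile genes Myl9 and Acta2, held 31 and 21. When nuclei were assigned 1 by 1, 86 of the 105 wild type nuclei and 0 of the 21 kept the choroid plexus name, so the name is doubtful for the total knockout nuclei.

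Tsc22d3 was counted mainly in glia. Oligodendrocytes held 212, 163, 204 and 168 CPM and astrocytes 74.9, 124, 204 and 105 CPM, while dentate granule neurons held 1.02, 1.13, 1.34 and 0.9704 CPM. The log2 differences from hippocampal neurons were 6.23 ± 0.14 for oligodendrocytes (adjusted p = 8.92e-33) and 5.23 ± 0.33 for astrocytes (adjusted p = 7.38e-17). Oligodendrocyte precursors had 5, 3 and 1 UMIs in wild type, total and astrocyte knockout, far fewer than the 197, 326 and 15 UMIs of oligodendrocytes. Meningeal fibroblasts held 123 CPM in wild type and 393 CPM in the total knockout library, from 6 and 9 UMIs. Among neurons, CA1 held 1.68, 2.01, 0.896 and 1.53 CPM and CA2/CA3 1.40, 1.99, 1.49 and 1.51 CPM, and neither passed the test against dentate granule neurons (adjusted p = 0.102 and 0.0659, edgeR). Inhibitory neurons were above the excitatory classes (5.22, 4.03, 2.80 and 3.35 CPM; 1.30 ± 0.17, adjusted p = 1.01e-08). Molecules of oligodendrocyte markers were present in neurons too: the list of 8 summed to 372 to 401 CPM in dentate granule and 25.9 to 80.7 CPM in inhibitory neurons, and the part of such molecules in the neuronal Tsc22d3 counts was not tested.

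Zbtb16 was high in dentate granule neurons (368, 307, 338 and 318 CPM) and CA1 (322, 286, 303 and 295 CPM). Their ranges overlapped and the difference did not pass the test (-0.08 ± 0.12; adjusted p = 0.576, edgeR), though CA1 was the lower within each library. CA2/CA3 held 219, 205, 222 and 192 CPM, below dentate granule neurons by a log2 difference of -0.61 ± 0.12 (adjusted p = 3.12e-05). That call was lost when nuclei were assigned 1 by 1 from their markers (adjusted p = 0.0673) and with DESeq2 (adjusted p = 0.0702). Inhibitory neurons held 197, 198, 187 and 195 CPM (-0.65 ± 0.10 against the excitatory classes; adjusted p = 4.76e-07). Mossy cells held 124, 83.1, 94.9 and 86.1 CPM of Zbtb16 and the subicular or cortical class 173, 119.9, 156 and 141 CPM, with every value of both below all CA1 and CA2/CA3 values.

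In glia the libraries spread widely for Zbtb16. Oligodendrocytes held 159, 41.6, 272 and 199 CPM, from 148, 83, 20 and 19 UMIs, and astrocytes 162, 13.7, 55.5 and 178 CPM, from 41, 2, 3 and 22 UMIs. The total knockout library was lowest in both. The list of 11 inhibitory neuron markers summed to 361, 58.2, 163 and 241 CPM in oligodendrocytes, from 5, 7, 4 and 2 of its genes, with Slc32a1 at 0 in each library, and it was likewise lowest in the total knockout library. In astrocytes that list summed to 74.9, 75.6, 55.5 and 113 CPM, with Gad2 and Slc32a1 at 0 in each library. The part of such molecules was not tested. Both glial classes were below the tested neuron classes pooled (edgeR, astrocytes -1.73 ± 0.29, adjusted p = 3.67e-06, and oligodendrocytes -1.70 ± 0.19, adjusted p = 3.19e-10). The oligodendrocyte difference was -0.97 without the total knockout library. Not every library showed it: the 272 CPM of the astrocyte knockout library exceeded all CA2/CA3 values (at most 222 CPM) and all inhibitory values (at most 198 CPM).

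Ddit4 and Cdkn1a were counted at a low level. Ddit4 held 8.19, 5.98, 7.40 and 6.94 CPM in dentate granule neurons, above CA1 at 5.13, 3.48, 4.36 and 3.905 CPM and CA2/CA3 at 3.24, 2.80, 2.58 and 3.13 CPM. No value of the dentate granule class overlapped CA1 or CA2/CA3, and the log2 differences were -0.70 ± 0.13 (adjusted p = 1.48e-05) and -1.23 ± 0.15 (adjusted p = 4.68e-09). Inhibitory neurons held 4.36, 3.18, 3.501 and 5.14 CPM of Ddit4, which overlapped CA1 and CA2/CA3 and did not pass the test against the excitatory classes (-0.28 ± 0.13; adjusted p = 0.0529). Its level in oligodendrocytes was 25.8, 21.6, 81.6 and 20.9 CPM, from 24, 43, 6 and 2 UMIs, with a log2 difference from neurons of 2.28 ± 0.22 (adjusted p = 1.03e-11). Astrocytes, with 6, 0, 4 and 5 UMIs, also lay above neurons (1.97 ± 0.46; adjusted p = 0.000626).

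Cdkn1a had 27 UMIs or fewer in each tested class and library. In CA2/CA3 it held 1.29, 1.27, 0.704 and 0.972 CPM against 0.241, 0.539, 0.494 and 0.746 CPM in dentate granule neurons, ranges that overlapped. The log2 difference of 1.13 ± 0.41 passed the test (adjusted p = 0.0182) but not with doublets kept (0.55), without the wild type library or without the total knockout library. In CA1 it held 0.1604, 1.14, 0.358 and 0.153 CPM and in inhibitory neurons 0.854, 1.53, 0.7003 and 0.671 CPM, while astrocytes and oligodendrocytes had at most 1 UMI in a library. No other contrast of Cdkn1a passed.

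**Figure D2:**
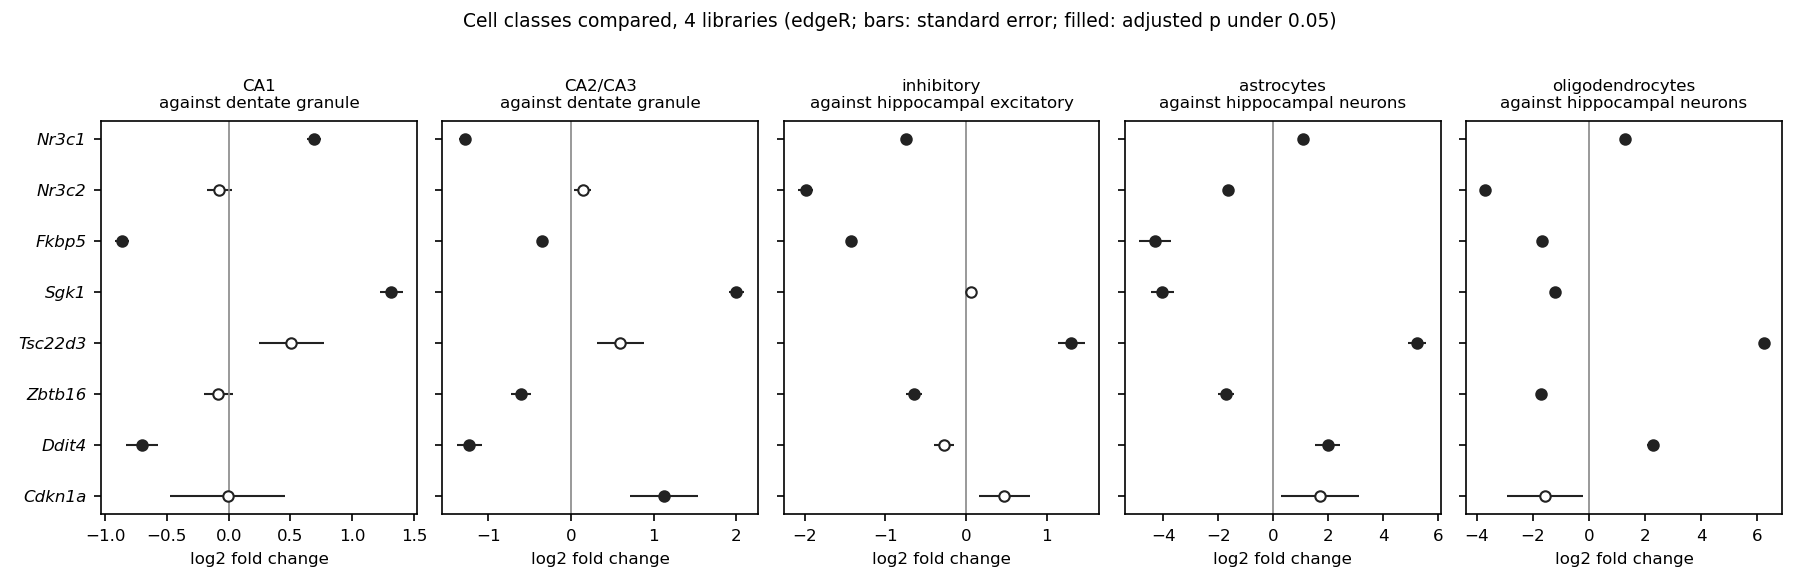
Log2 differences between classes for the 8 genes, with bars of 1 standard error from the edgeR fit over 4 libraries and filled points where the adjusted p was under 0.05. Sgk1 and Fkbp5 lie on opposite sides of 0 in CA1 and CA2/CA3 against dentate granule neurons, and Tsc22d3 reaches 5.23 in astrocytes and 6.23 in oligodendrocytes.

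Passing this test was common among all genes, so each count of members is set beside the share of all genes. In CA1 against dentate granule neurons 4 of the 8 members passed, beside 56.0% of the 17392 genes tested. In CA2/CA3 against dentate granule neurons 6 of 8 passed, beside 58.5%. For inhibitory against excitatory neurons the figures were 5 of 8 and 69.1%. Among glia, 7 of 8 passed in astrocytes (35.6% of all genes) and 7 of 8 in oligodendrocytes (57.9% of all genes). The median log2 difference of all genes was -0.42 in astrocytes and -0.23 in oligodendrocytes. Of all genes past the threshold, 6389 were higher and 5625 lower in inhibitory neurons, 2492 and 3705 in astrocytes, and 4269 and 5799 in oligodendrocytes. With no scaling beyond library size these splits became 8194 and 4298, 3812 and 1877, and 5789 and 4475, while no member changed direction. Several glial differences kept their call but were smaller with nuclei assigned 1 by 1. In oligodendrocytes Nr3c2 was then -0.99, Nr3c1 0.73, Fkbp5 -0.73, Sgk1 -0.51 and Zbtb16 -0.68, and in astrocytes Nr3c2 was -1.08, Fkbp5 -2.05 and Sgk1 -1.18. With doublets kept, oligodendrocytes gave -1.83 for Nr3c2, -0.67 for Sgk1 and -0.6957 for Zbtb16, and without the total knockout library -0.66 for Sgk1 and -0.97 for Zbtb16. With no scaling beyond library size, astrocytes gave 1.67 for Nr3c1, -1.05 for Nr3c2 and -1.15 for Zbtb16. The p-values measure how far class differences vary between 4 libraries of different genotypes. That spread was pooled over all classes of the fit, which come from the same libraries. The classes were formed from other genes of the same nuclei.

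Other genes of the pathway, from lists chosen by known function, differed among the classes as follows. Of 20 further glucocorticoid response genes, 18 were tested, and 6 were higher and 6 lower in CA1 than in dentate granule neurons (median -0.18, against -0.02 for all genes), beside the 56.0% of all genes that passed. Those with the largest differences were Dusp1, a MAP kinase phosphatase, at 2.17, the transcription factor Cebpb at -1.45 and Hif3a at 1.29. In CA2/CA3 there were again 6 higher and 6 lower (median 0.21; 58.5% of all genes passed), led by the transcriptional repressor Bcl6 at -2.23, Cebpd at -1.95 and Cebpb at -1.69. In inhibitory neurons 3 were higher and 10 lower than in excitatory neurons (median -0.65, against 0.03 for all genes; 69.1% passed), led by Cebpd at -2.97, Klf9, a hormone-responsive transcription factor, at -2.14 and Bcl6 at -1.84. In astrocytes 8 were higher and 1 lower (median 1.29, against -0.42; 35.6% passed), led by Pdk4 at 8.28, Glul (glutamine synthetase) at 5.76 and the metallothionein Mt2 at 5.48. Oligodendrocytes had 7 higher and 1 lower (median 0.32, against -0.23; 57.9% passed). The largest there were Pdk4 at 6.65 and Glul at 4.29, and Cebpb at a fitted -4.04 from 1 UMI in all, which depends on the prior count.

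The 16 receptor chaperones and coregulators passed the test about as often as all genes did. In CA1 4 were higher and 3 lower (56.0% of all genes passed), in CA2/CA3 3 and 7 (58.5%), in inhibitory neurons 8 and 4 (69.1%), in astrocytes 1 and 4 (35.6%) and in oligodendrocytes 8 and 3 (57.9%). Fkbp4, a co-chaperone related to Fkbp5, was lower in CA1 (-0.41, adjusted p = 0.00147) and CA2/CA3 (-0.87, adjusted p = 6.90e-08) than in dentate granule neurons and higher in inhibitory neurons (1.03, adjusted p = 2.85e-14). Of the genes of corticosteroid supply and stress peptides, 6 were tested, and 2 were higher and 1 lower in CA1, 3 and 1 in CA2/CA3, 4 and 1 in inhibitory neurons, 2 and 1 in astrocytes, and 1 and 3 in oligodendrocytes. Hsd11b1, which regenerates active corticosterone within cells, was higher in CA2/CA3 than in dentate granule neurons by 2.28 on the log2 scale (adjusted p = 5.80e-16) and higher in astrocytes than in neurons by 4.79 (adjusted p = 2.92e-19).

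Of 12 immediate early genes, which neuronal activity induces, 10 were higher and 2 lower in CA1 than in dentate granule neurons (median 1.75, against -0.02 for all genes, of which 56.0% passed), led by Arc at 4.01, Nr4a1 at 3.72 and Npas4 at 3.33. In CA2/CA3 8 were higher and 2 lower (median 0.97; 58.5% of all genes passed). In inhibitory neurons 3 were higher and 6 lower (median -0.44; 69.1%), in astrocytes 0 and 3 (median -2.73; 35.6%) and in oligodendrocytes 1 and 8 (median -2.70; 57.9%). Of the clock genes 14 were tested, and 6 were higher and 4 lower in CA1 (median 0.13), 1 and 11 in CA2/CA3 (median -0.65), 2 and 9 in inhibitory neurons (median -0.45), 8 and 1 in astrocytes (median 0.99), and 1 and 7 in oligodendrocytes (median -1.01). Hlf, a clock-controlled transcription factor, stood at -2.08 in CA1 and -3.17 in CA2/CA3, and Per3 at -1.64 in inhibitory neurons.

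Across the 15 classes the profile of each member was compared with those of all genes above a minimum level of 5 CPM, by Pearson's r of log2 (CPM + 1). This is a description over classes that share libraries and differ in depth. Each closest gene was picked as the highest r among 16241 genes, and whether such a maximum exceeds that of unrelated genes was not tested. For the members other than Sgk1, the closest genes were Ppard (0.87) for Nr3c1, Tnxb (0.90) for Nr3c2, Gm27003 (0.90) for Fkbp5, Magt1 (0.95) for Tsc22d3, Olfml2b (0.78) for Zbtb16, Fam107b (0.97) for Ddit4 and Hspa8 (0.93) for Cdkn1a. The next for Tsc22d3 was the nuclear noncoding RNA Neat1, at 0.95. The profile of Cdkn1a rests on few molecules, with at most 1 UMI per library in astrocytes, oligodendrocytes and oligodendrocyte precursors.

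Between the genotypes, differences of the well-counted members were small in the 4 tested neuron classes. Each knockout library was compared with the wild type library class by class, and a CPM ratio of at least 1.5 in either direction was counted. Of 24 ratios (8 genes in 3 knockout libraries), 3 passed in dentate granule neurons, 3 in CA1, 1 in CA2/CA3 and 3 in inhibitory neurons. Among ratios backed by 100 UMIs or more, summed over the 4 libraries of a class, 0 of 18, 0 of 18, 0 of 18 and 2 of 21 passed. The background, as the share of all genes meeting that minimum that passed in the total, astrocyte and neuron knockout libraries, was 7.56%, 7.51% and 6.85% in dentate granule neurons. In CA1 it was 8.28%, 5.35% and 7.11%. It was 7.81%, 4.51% and 7.52% in CA2/CA3 and 7.51%, 7.34% and 7.46% in inhibitory neurons. In these 4 classes the ratios past the threshold were all of Cdkn1a or Tsc22d3, the genes with the fewest molecules in neurons. In mossy cells, astrocytes, oligodendrocytes and the subicular or cortical class, 0 to 4 of 8 members passed per library, with no background share computed. They lay in both directions. In the total knockout library Nr3c2, Sgk1 and Zbtb16 in oligodendrocytes, Zbtb16 in astrocytes and Fkbp5 in the subicular or cortical class were lower. Tsc22d3 in astrocytes was higher there, from 18 UMIs against 19 in the deeper wild type class. In oligodendrocytes of the astrocyte knockout library Zbtb16, Ddit4 and Fkbp5 were higher and Sgk1 lower, from 20, 6, 4 and 4 UMIs.

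Among the tested neuron classes, the 2 ratios past 1.5-fold with enough molecules were both of Tsc22d3 in inhibitory neurons. Its 55, 71, 28 and 45 UMIs there gave log2 ratios of -0.90 in the astrocyte knockout library (95% exact interval -1.61 to -0.22) and -0.64 in the neuron knockout library (-1.24 to -0.04). These intervals, and those that follow, cover counting error only. The list of markers of oligodendrocytes, a class high in Tsc22d3, summed there to 80.7, 54.9, 25.9 and 42.0 CPM, in the same order of libraries as Tsc22d3. The part of oligodendrocyte RNA in this difference was not tested. Neither ratio passed 1.5-fold when nuclei were assigned 1 by 1 from their markers (-0.4964 and -0.42), and that of the neuron knockout library did not with doublets kept (-0.53) or as the mean CPM per nucleus (-0.49).

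Just inside the threshold lay Ddit4 in CA1 of the total knockout library, where 52 UMIs against 64 gave -0.56 (-1.12 to -0.01). In male nuclei alone it was -0.0261 (-0.82 to 0.82), and it was -0.31 when nuclei were assigned 1 by 1 and -0.28 in the largest cluster. Its other 11 ratios in the 4 classes lay between -0.46 and 0.24. Sgk1 in dentate granule neurons rested on more molecules. Against wild type it stood at 0.47 (0.34 to 0.60) on the log2 scale for the total, 0.31 (0.17 to 0.46) for the astrocyte and 0.54 (0.40 to 0.68) for the neuron knockout library, so each knockout library was above wild type. In CA1 the ratios were 0.19, 0.17 and 0.21, again all above 0 with their intervals. In male nuclei alone the dentate granule ratios were 0.29 (0.12 to 0.46), -0.18 (-0.41 to 0.06) and 0.02 (-0.20 to 0.23), so the astrocyte knockout library turned direction. In CA1 they were 0.18 (0.05 to 0.30), 0.03 (-0.12 to 0.17) and 0.14 (0.00176 to 0.28). Over all nuclei, in CA2/CA3 they were 0.09, 0.08 and 0.05. In inhibitory neurons they were -0.06, -0.05 and -0.11.

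Zbtb16 was lower than wild type in dentate granule neurons in each knockout library (-0.26, -0.12 and -0.21) and in CA1 (-0.17, -0.09 and -0.12), with all 6 intervals below 0. In male nuclei alone the dentate granule class gave -0.25, 0.01 and 0.02 and the CA1 class -0.15, -0.03 and -0.02, and of these 6 intervals those of the total knockout library lay below 0 and the others held 0. Fkbp5 was lower in the total knockout library in 3 of the tested neuron classes, at -0.24 (-0.33 to -0.15) in the dentate granule class, -0.24 (-0.38 to -0.09) in CA1 and -0.50 (-0.63 to -0.36) in CA2/CA3. In inhibitory neurons it lay at 0.13 (-0.06 to 0.32) there. The subicular or cortical class held 29.0 CPM of Fkbp5 in wild type and 19.0 CPM in the total knockout library. In the neuron knockout library Fkbp5 was lower too, at -0.20 (-0.30 to -0.11) in dentate granule neurons and -0.21 in CA2/CA3. In male nuclei alone the total knockout ratios in the 3 classes were -0.19, -0.37 and -0.34, all with intervals below 0, while those of the neuron knockout library became 0.08 (-0.06 to 0.22) in dentate granule neurons and 0.26 (0.06 to 0.47) in CA2/CA3.

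Of the receptors, Nr3c2 in dentate granule neurons lay at -0.07, -0.27 and -0.07, with the lowest value in the astrocyte knockout library, and in inhibitory neurons at 0.18, 0.11 and 0.15. The inhibitory ratios of Nr3c2 were 0.06, 0.02 and 0.08 in the largest cluster. With nuclei assigned 1 by 1, those of the total and astrocyte knockout libraries were 0.29 and 0.20. Nr3c1 in the total knockout library was above wild type in dentate granule neurons (0.18, 0.09 to 0.27) and in CA2/CA3 (0.40, 0.20 to 0.61) and below it in inhibitory neurons (-0.18, -0.32 to -0.03). The CA2/CA3 value was 0.14 when nuclei were assigned 1 by 1, and the inhibitory one turned to 0.04 with doublets kept and to 0.05 in the largest cluster, where that of the neuron knockout library turned from -0.22 to 0.105. In the astrocyte knockout library it lay at -0.26 in dentate granule and -0.25 in inhibitory neurons.

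**Figure D3:**
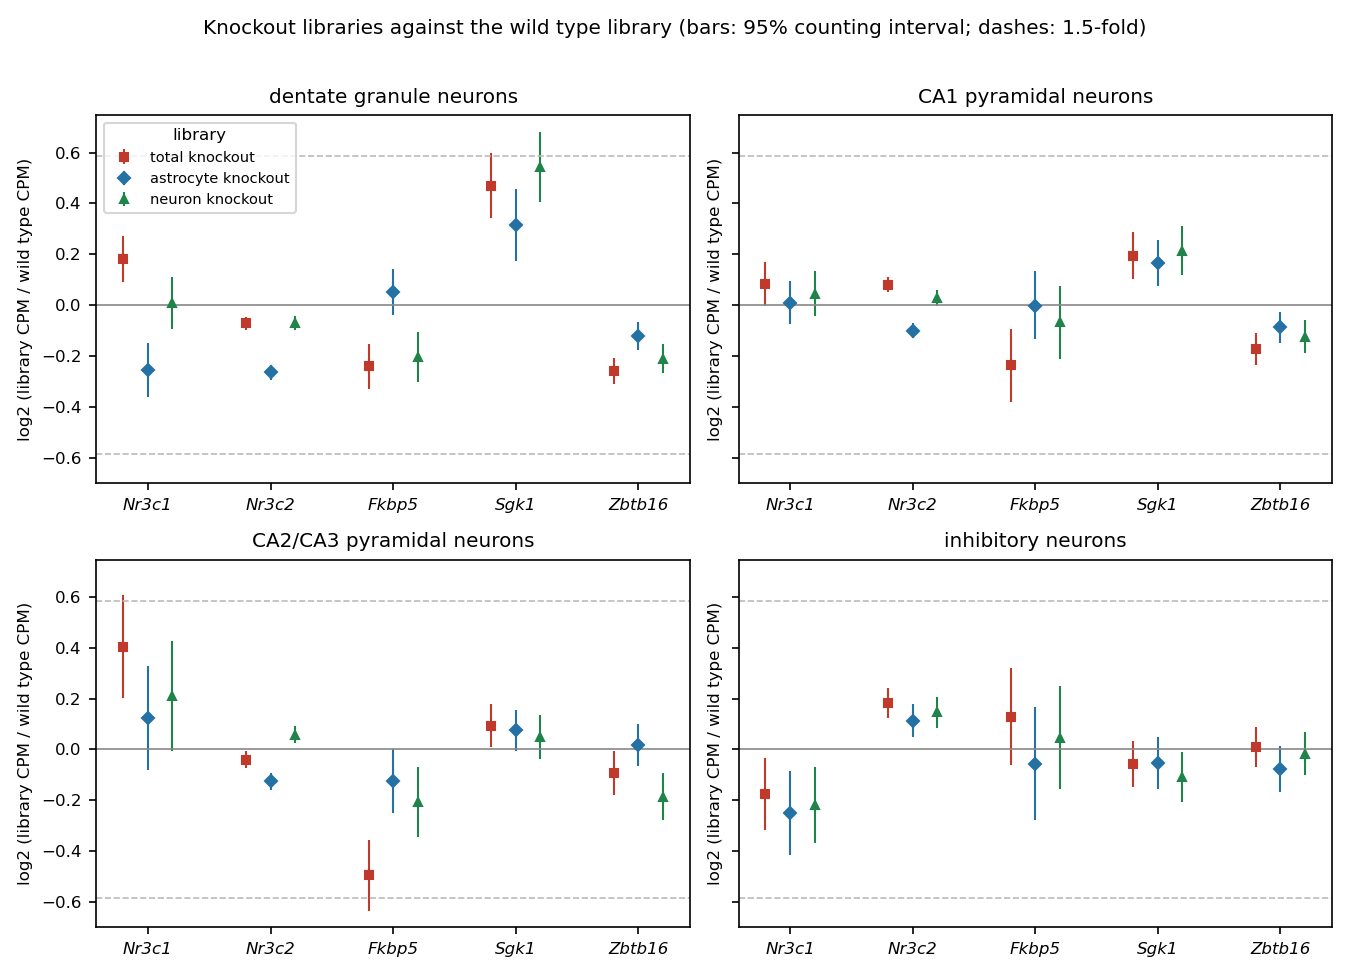
Log2 ratio of each knockout library to the wild type library for the 5 members with the most molecules, in 4 neuron classes, with 95% counting intervals and dashed lines at 1.5-fold. All points lie inside the dashed lines, and the 3 Sgk1 points of dentate granule neurons are the highest of their panel.

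Among the 16 receptor chaperones and coregulators, 0 to 4 passed 1.5-fold in a library and neuron class. Their medians lay between -0.17 and -0.04, against -0.06 to -0.01 for all genes. All genes passed at 4.51% to 8.28% in these libraries and classes, with more of them lower than higher in each. In dentate granule neurons of the total knockout library 787 were lower and 212 higher. Hspa8, which encodes the constitutive chaperone HSC70, was below wild type in each of the 3 knockout libraries in each of the 4 classes, from -0.56 to -1.07, and Hsp90ab1, which encodes an HSP90 isoform that holds the unliganded receptor, from -0.47 to -1.06. All of these ratios share the 1 wild type library. Of the 20 further glucocorticoid response genes, 11 to 14 had at least 100 UMIs in each of the 4 neuron classes, and at most 4 of them passed 1.5-fold in a library there, beside the same 4.51% to 8.28% of all genes. Those 4 were lower in inhibitory neurons of the neuron knockout library, with Bcl6 at -1.33, Mt1 at -1.05 and Nfkbia at -0.83. The largest ratio of the list in these classes was that of Cebpb, at -1.52 in inhibitory neurons of the total knockout library. Ciart, a clock gene, was above wild type in dentate granule neurons of all 3 knockout libraries, at 0.95, 1.18 and 1.18. It was the 1 gene past 1.5-fold there of the 14 clock genes counted, was chosen after its values were seen, and the list medians were -0.00275, 0.05 and 0.01. No source used here gives the time of day of collection. The immediate early genes with enough molecules, 9 or 10 in a class, lay on different sides of wild type across libraries and classes. In the astrocyte knockout library 6 of 9 were below wild type by 1.5-fold in inhibitory neurons (median -1.10, with Egr1 at -1.85, Fos at -1.72 and Jun at -1.67), beside 7.34% of all genes past it in either direction. In CA1 4 of 10 were (median -0.44, with Btg2 at -1.41), beside 5.35%, and none of the list was above in these 2 classes. In the neuron knockout library 4 of 9 were above and 1 below in CA2/CA3 (median 0.51, with Npas4 at 1.52), beside 7.52%, while in the total knockout library 0 to 2 passed in each direction in each of the 4 classes.

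Sex was not in the labels, but female and male nuclei could be told apart within the wild type, astrocyte knockout and neuron knockout libraries. In dentate granule neurons the library differences above were unevenly spread over the sexes. Sgk1 was 42.5 CPM in female and 54.0 CPM in male nuclei of wild type, 74.6 and 47.8 CPM in the astrocyte knockout library, and 82.3 and 54.7 CPM in the neuron knockout library. Male nuclei of these 3 libraries thus lay between 47.8 and 54.7 CPM, and the higher levels were those of female nuclei. The total knockout library, almost entirely male, held 65.9 CPM in its male nuclei.

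In dentate granule neurons, Fkbp5 and Zbtb16 differed by sex most in the neuron knockout library. Fkbp5 was 81.1 CPM in female and 127 CPM in male nuclei there (log2 ratio -0.65, -0.83 to -0.48), against 126 and 120.6 CPM in wild type and 131 and 121 CPM in the astrocyte knockout library. Zbtb16 was 257 CPM in female and 375 CPM in male nuclei of the neuron knockout library (-0.55, -0.65 to -0.45), 317 and 372 CPM in the astrocyte knockout library, and 363 and 369 CPM in wild type. Male nuclei of these libraries were again close together, at 369 to 375 CPM. In the total knockout library male nuclei held 311 CPM of Zbtb16 and 105 CPM of Fkbp5, below the male nuclei of the other 3. In CA2/CA3, Fkbp5 was 110.7 CPM in female and 89.7 CPM in male nuclei of wild type, 80.8 and 104 CPM in the astrocyte knockout library, and 64.7 and 108 CPM in the neuron knockout library, so the female nuclei were higher in wild type and lower in the other 2.

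Nr3c2 in dentate granule neurons of the astrocyte knockout library was 1099 CPM in female and 1394 CPM in male nuclei (-0.34, -0.39 to -0.29). In wild type the order was the other way, at 1588 and 1406 CPM. The lower Nr3c2 of the astrocyte knockout library was thus found in its female nuclei, while male nuclei of all 4 libraries held 1394 to 1435 CPM. The number of animals behind the nuclei of a sex is not given, so a sex within a library may be 1 animal, and sex and animal cannot be told apart within a library.

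Tested over the 3 libraries, 1 member differed between the sexes. Fkbp5 in CA1 was 57.7, 58.1 and 49.5 CPM in female and 70.0, 71.8 and 71.5 CPM in male nuclei of the wild type, astrocyte and neuron knockout libraries. Female nuclei were lower in all 3, with a log2 difference of -0.38 ± 0.08 (SE, n = 3 libraries; adjusted p = 0.0456, edgeR). This was 1 of 7 members tested, and 0.163% of all genes passed. The call was lost without the neuron knockout library and with DESeq2, among other settings.

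In dentate granule neurons 0 of 6 members passed in edgeR (0.355% of all genes passed), with 2 at an unadjusted p under 0.05, and 0 in DESeq2. These 2 were Zbtb16 (-0.27 ± 0.07; adjusted p = 0.163) and Sgk1 (0.28 ± 0.13; adjusted p = 0.588). In inhibitory neurons 0 of 7 passed in edgeR (0.115% of all genes passed), with 1 at an unadjusted p under 0.05, Sgk1 at -0.12 ± 0.06, and 0 in DESeq2.

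**Figure D4:**
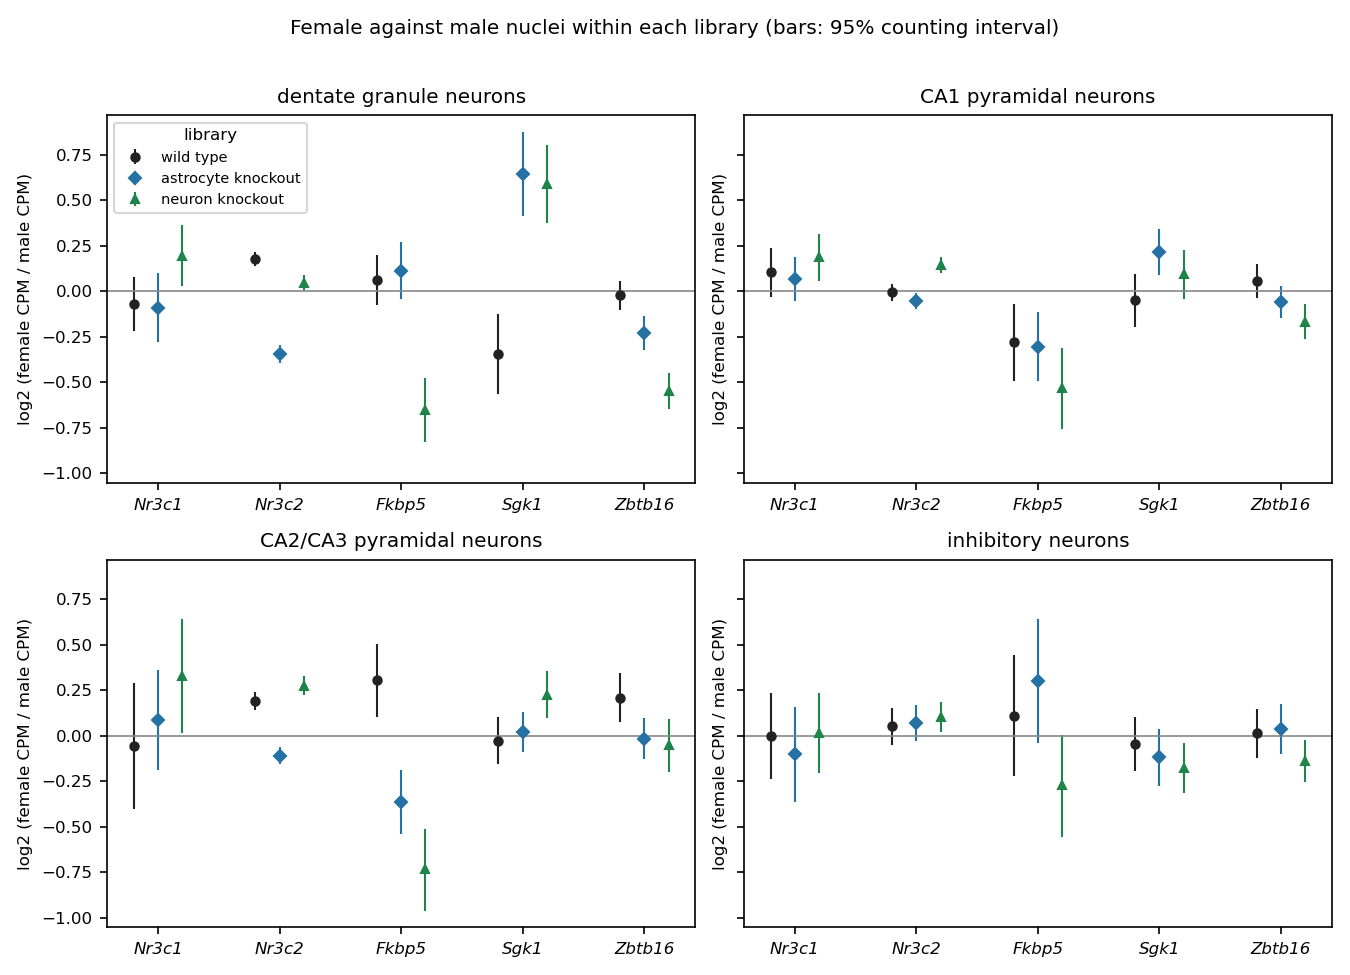
Log2 ratio of the CPM of female nuclei to that of male nuclei within each of the 3 libraries with both sexes, for 5 members in 4 neuron classes, with 95% counting intervals. In dentate granule neurons the neuron knockout library lies at -0.65 for Fkbp5 and -0.55 for Zbtb16, and in CA1 all 3 Fkbp5 points lie below 0.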

How the data were processed

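Nuclear RNA of mouse hippocampus was sequenced with a 10x Genomics kit, 1 library per genotype. The authors deposited raw counts of unique molecules per gene and barcode, made with Cell Ranger ARC 2.0.0 on mm10 per the submitters' processing notes, with the use of strand not stated. Barcodes with at least 500 genes and at most 5% mitochondrial UMIs were kept, and doublets scored with Scrublet were removed. Nuclei were clustered with scanpy 1.11.5 (2000 variable genes, 30 components, Leiden resolution 1), leaving out the 8 members, the listed pathway genes, Mgll and sex genes. Clusters were named from listed markers, and clusters of mixed non-neuronal types were split once more by a rule chosen after seeing them.

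Counts were summed per library and class. Class contrasts and female against male nuclei were tested with edgeR 4.0.16 (quasi-likelihood, TMM, library as a block) over all genes, with Benjamini-Hochberg adjustment and a threshold of 0.05. Libraries are the replicates, 4 for classes and 3 for sex, each of another genotype. With library as a block, p-values measure how far a difference within libraries varies from library to library. For class contrasts this spread was pooled in a joint fit over all classes with at least 20 nuclei in each library. The fit treated class sums of the same library as independent, so small p-values rest on no more than 4 libraries. Knockout ratios have no test: CPM intervals are exact Poisson and ratio intervals exact conditional binomial, both 95%. A nucleus was called female or male from at least 1 UMI of Xist or of Y-linked genes. On simulated counts with the CA1 against dentate granule design, 162 of 200 genes changed 1.5-fold were recovered over 16410 genes, with 14 false calls. The changed genes were drawn from well-counted genes, and the simulated means held no other class differences. This rate therefore does not describe members with few molecules, such as Cdkn1a.

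The rule named all 8 members in each class, and from each of 5 lists the 3 genes with the largest change among those past the threshold, or with at least 100 UMIs for ratios. The text gives all 3 for the further response genes in each class contrast and, chosen after their values were seen, only some for the other lists and the ratios. Likeness names used the highest r, and that of Sgk1 is not reported here. The members and lists were chosen with earlier results of these data known.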

Additional observations from a re-analysis of the deposited data

Results flagged for a closer look

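For 6 pairs of classes, all 3 knockout libraries lay on one side of the wild type library in one class and on the other side in the other class. None of these differences was tested, since each genotype had 1 library and all ratios share the wild type library. The mean log2 ratio of Sgk1 over the knockout libraries was higher than that of inhibitory neurons by 0.52 in dentate granule neurons, 0.26 in CA1 and 0.15 in CA2/CA3. That of Nr3c1 was higher than in inhibitory neurons by 0.26 in CA1 and 0.46 in CA2/CA3. That of Nr3c2 in dentate granule neurons minus that in inhibitory neurons was -0.28. Under 9 other settings, the pattern on opposite sides of wild type was kept in 5 for each Nr3c1 pair, 8 for the Nr3c2 pair, and 7, 8 and 7 for Sgk1 in dentate granule, CA1 and CA2/CA3 neurons. Both Nr3c1 pairs lost it with doublets kept, with nuclei assigned 1 by 1 (with or without the filter) and in the largest cluster. The Nr3c2 pair and the Sgk1 pairs with dentate granule and CA2/CA3 neurons lost it in male nuclei, and all 3 Sgk1 pairs with TMM scaling. A library standing apart from the other 3 was looked for in 42 sets of 4 libraries (a member in a class), and 0 were found by Dixon's test.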

How the results depend on the processing

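No contrast between classes changed its count of members by over 1.5 times under DESeq2, no scaling, no filter on low counts, no replicate block, the gate on single nuclei, doublets kept or without any library. Over all tested members and settings 558 log2 differences kept their side of the threshold with no called one reversed, 11 lost the call and 8 gained it. No replicate block ended the CA1 sex call, giving 0 members, and changed no other call. CA1 also gave 0 with 2 UMIs to call a sex, DESeq2, doublets kept or no scaling. For Fkbp5 the adjusted p was then 0.0843, 0.9999, 0.111 and 0.0985, and 0.9998 without the block. Leaving out a library gave 0 to 1 member in CA1 (0 without the neuron knockout library, adjusted p = 0.930) and 0 to 1 in dentate granule neurons, where no filter on low counts also gave 1. Over all genes, 48 differed by sex in dentate granule neurons (7 to 186 in other settings), 22 in CA1 (7 to 81) and 16 in inhibitory neurons (8 to 89).

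Ratios past 1.5-fold, of 24, became 1 in dentate granule neurons with doublets kept, 1 in CA1 and 1 in inhibitory neurons with the nucleus gate. In CA2/CA3 they became 2 with doublets kept, the nucleus gate with or without the filter, or the mean CPM per nucleus, 3 in the largest cluster only and 6 in male nuclei only. The cause was not tested. Of the single ratios, 743 stayed within their 95% counting interval, 111 moved beyond it and 7 reversed; of the mean CPM values 251 stayed within 1 SD and 61 moved, 24 of them with the largest cluster only and 20 with the nucleus gate. Here reversed means that a ratio past 1.5-fold changed sign, and all 7 were of Cdkn1a. In dentate granule neurons they were -0.00598 (nucleus gate, total knockout), -0.0923 and -1.09 (male nuclei, total and astrocyte knockout). In CA1, astrocyte knockout, they were -0.89 (doublets kept), -0.48 and -0.29 (nucleus gate without and with the filter), and in CA2/CA3, astrocyte knockout, 0.99 (male nuclei). Smaller ratios changed sign too. Of the 73 ratios inside 1.5-fold with at least 100 UMIs, 20 did so in male nuclei (9 of them with a first interval that excluded 0), 14 in the largest cluster (4), 10 with the nucleus gate (2), 10 with that gate and no filter (1), 6 with TMM scaling (1), 4 with doublets kept (2), 3 as the mean CPM per nucleus (0), 2 at resolution 0.5 (0) and 0 with a pseudocount of 1 UMI.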
